A study of Mus musculus with 4 samples.

Results

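Gata3 and 4 other transcription factors that have been tied to T helper 2 (Th2) cells, Maf, Nfil3, Gfi1 and Bhlhe41, were followed across helper T cells cultured with and without STAT4 or STAT6. All probe sets that the platform annotation gave to one of these 5 symbols alone were taken, which made 11 of the 45101 probe sets on each array: 1 for Gata3, 6 for Maf, 1 for Nfil3, 1 for Gfi1 and 2 for Bhlhe41. The 5 genes stood among 18193 that had a probe set of their own.

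The study asked how STAT4 and STAT6 tune gene expression during helper T cell differentiation. Naive CD4+ CD44- CD62L+ T cells from spleen and lymph nodes were activated through CD3 and CD28 for 3 days and held in interleukin-2 (50 U/ml) for 4 more days, then restimulated for 2 h on day 7. Wild type Th1 cells (C57BL/6J) and Th1 cells carrying the STAT4 tm1 allele received interleukin-12 throughout, at 20 ng/ml, then 10 and 20 ng/ml again, and an antibody to interleukin-4 during activation. Wild type Th2 cells (C57BL/6J) and Th2 cells carrying the STAT6 tm1Gru allele (B6.129S2 strain label) received interleukin-4 throughout, at 10 ng/ml, and an antibody to interferon gamma during activation. The titles call the Th1 control STAT4-wild type and the Th2 control STAT6-wild type, and the age of the mice, their number per culture and any pooling are not given. There was 1 array per group, so no value has a replicate check, no test was possible and every difference describes these 4 arrays.

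In Th2 cells interleukin-4 binds a receptor whose kinases JAK1 and JAK3 activate STAT6, which raises transcription of Gata3. GATA3 is a zinc finger factor that opens and drives the Il4, Il5 and Il13 genes and opposes the Th1 factor T-bet. c-MAF and NFIL3 are basic leucine zipper factors, the first an activator of Il4, Il10 and Il21 and the second, also called E4BP4, a factor needed for Il10 in helper T cells. GFI1 is a zinc finger repressor that favours the growth of Th2 cells, and BHLHE41 (DEC2) is a basic helix-loop-helix repressor of the circadian clock that has been linked to interleukin-2 receptor expression in Th2 cells.

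The stretches from 250 bases before to 50 bases after annotated start sites were read from RefSeq (GRCm38.p6) to show the start sites and to search them for STAT and other motifs. Windows were matched for 4 of the 5 genes, with 2 for Gfi1 and none used for Maf. The first window below belongs to a gene that was lower without STAT6 and higher without STAT4, the second to a gene lower without either, and the third to a gene that differed by less than 2-fold. Capitals mark the matches to the motifs searched. All 3 lie on the minus strand, at chr2:9878551-9878850, chr13:52980990-52981289 and chr5:107725756-107726055.
Gata3: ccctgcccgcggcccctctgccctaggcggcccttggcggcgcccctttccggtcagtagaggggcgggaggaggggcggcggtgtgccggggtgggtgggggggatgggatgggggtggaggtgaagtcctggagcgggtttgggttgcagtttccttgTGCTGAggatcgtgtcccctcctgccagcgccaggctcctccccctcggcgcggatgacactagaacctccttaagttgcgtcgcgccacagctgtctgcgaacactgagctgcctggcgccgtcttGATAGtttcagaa
Nfil3: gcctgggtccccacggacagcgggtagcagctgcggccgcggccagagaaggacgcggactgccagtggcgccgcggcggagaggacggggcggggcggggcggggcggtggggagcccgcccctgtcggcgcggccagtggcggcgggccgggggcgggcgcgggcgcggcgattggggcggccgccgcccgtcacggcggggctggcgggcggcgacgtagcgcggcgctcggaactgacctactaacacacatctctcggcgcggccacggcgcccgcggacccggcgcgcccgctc
Gfi1: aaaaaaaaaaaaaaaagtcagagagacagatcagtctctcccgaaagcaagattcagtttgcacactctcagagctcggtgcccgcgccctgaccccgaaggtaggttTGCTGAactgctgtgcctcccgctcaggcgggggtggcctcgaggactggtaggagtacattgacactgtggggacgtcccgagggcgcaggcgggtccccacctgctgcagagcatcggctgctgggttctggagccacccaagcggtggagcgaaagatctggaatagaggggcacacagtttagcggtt

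The STAT motif TTCNNNGAA and its longer form, TTC and GAA spaced by 4 bases as STAT6 prefers, were searched on both strands and no match was found in any of the 5 windows. Among all 32851 promoter windows 8.3% held the first and 6.95% the second. The Gata3 window held 1 MAF core motif (TGCTGA), as did the first Gfi1 window, and 19.5% of all windows hold one. The Gata3 window also held 1 GATAG, found in 23.5% of windows, and no GATAA, found in 25.4%. The Bhlhe41 window held 1 E-box (CACGTG), the sequence that BHLHE41 itself can bind, against 7.15% of windows, and none of the 5 windows held TTACGTAA, an NFIL3 site found in 0.119%. The motifs do not overlap in these windows, and a match or its absence in 300 bases says nothing of binding in the cells or of sites elsewhere in a gene.

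The deposited values are levels on a log2 scale, made by the authors with RMA, so that a difference of 1 is a 2-fold difference. A gene was called higher or lower where its main probe set, the one with the highest mean over the 4 arrays, differed by at least 1 between a pair of arrays and reached 5.82, the pooled median, on the brighter one. This level minimum was reached on at least 1 array by 8 of the 11 probe sets and 4 of the 5 genes in Th1 cells with and without STAT4. The disagreement between probe sets of the same gene, a guide to technical spread only, had an SD of 0.48 in the Th1 pair and 0.65 in the Th2 pair, of 0.71 between wild type arrays and of 0.85 between deficient ones. Medians over all probe sets outside the controls ran from 5.63 to 6.01 over the arrays, and pairs of arrays correlated with r between 0.92 and 0.96. The beta-actin control read higher at its 3′ than at its 5′ end by 2.08 log2 units on the STAT6-deficient array and by 0.32 to 0.85 on the others, and its part in the differences below was not tested.

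**Figure D1:**
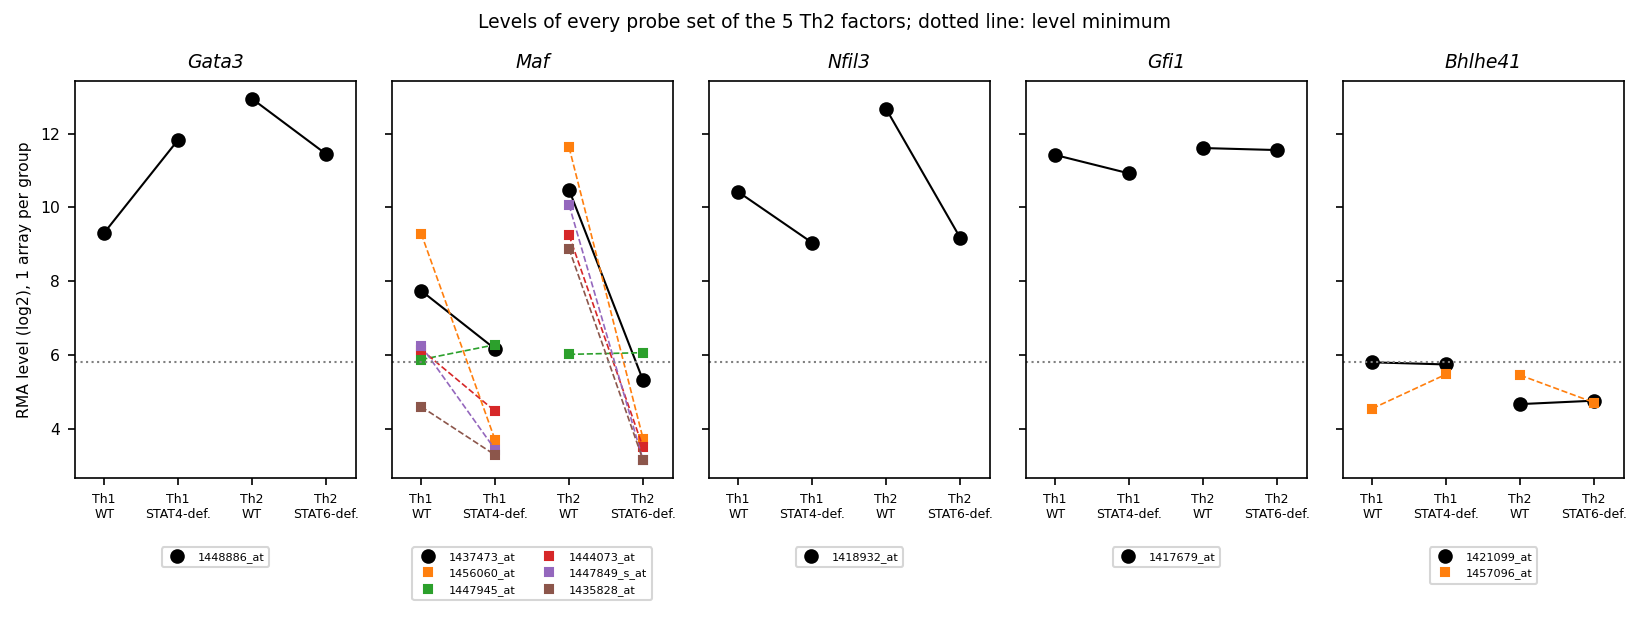
Level (RMA, log2) of each of the 11 probe sets on each of the 4 arrays, with 1 panel per gene. Black circles are the main probe set, coloured squares the others, lines join the deficient array to its wild type, and the dotted line is the level minimum of 5.82. Gata3 is highest in Th2 wild type and lowest in Th1 wild type cells. Nfil3 and 5 of 6 Maf probe sets are highest in Th2 wild type cells and lower in each deficient array than in its wild type. The other Maf probe set, 1447945_at, is nearly level. Gfi1 lies between 10.92 and 11.61, and both Bhlhe41 probe sets lie under the dotted line.

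Gata3 was abundant in all 4 cultures and differed in opposite directions without STAT4 and without STAT6. Its probe set read 9.31 in wild type and 11.84 in STAT4-deficient Th1 cells, then 12.95 in wild type and 11.45 in STAT6-deficient Th2 cells. Even the lowest of these levels, in Th1 wild type cells, lay above 88.2% of the probe sets on its array. Th2 wild type cells therefore held 12.4-fold more Gata3 signal than Th1 wild type cells, a log2 difference of 3.64. In this bulk RNA, more cells with the transcript and more transcript per cell cannot be told apart.

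Without STAT4, Th1 cells had 5.75-fold more Gata3 signal than their wild type, a log2 difference of 2.52. It was the 19th highest difference among 12608 genes at the level minimum. Without STAT6, Th2 cells had 2.83-fold less Gata3 signal than theirs (−1.50), which placed it 1043rd from the lowest of 11490 genes. The level that remained in STAT6-deficient Th2 cells was still 4.40-fold above that of Th1 wild type cells. Between the deficient arrays Gata3 differed by −0.39 (Th2 minus Th1), under the 2-fold limit and under the probe-set disagreement of that pair. In order of level, Th2 wild type cells came first, the deficient cultures could not be separated, and Th1 wild type cells came last.

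Of the genes at the level minimum in both losses, 75 of 10951 (0.685%) were called higher without STAT4 and lower without STAT6, as Gata3 was. They made 12.7% of the genes higher without STAT4 and 3.75% of those lower without STAT6. Over all 10951 genes, 2002 were lower without STAT6 and 589 were higher without STAT4, which are larger shares than 12.7% and 3.75%. These losses share no array, whereas the wild type comparison shares 1 array with each loss and the comparison of deficient cells shares the others, so a gene's 4 differences come from only 4 values.

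Maf, the gene with the largest STAT6 difference of the 5, was bright in Th2 wild type cells and dim in both deficient cultures. Its main probe set, 1437473_at, read 7.74 in wild type and 6.16 in STAT4-deficient Th1 cells, then 10.48 in wild type and 5.31 in STAT6-deficient Th2 cells. Maf was thus 35.9-fold lower without STAT6 (−5.16) and 2.99-fold lower without STAT4 (−1.58), and 6.67-fold higher in Th2 than in Th1 wild type cells (2.74). The level of 5.31 without STAT6 is under the level minimum, so the size of that fold rests on the background of the array. Unlike Gata3, Maf in STAT6-deficient Th2 cells was below Th1 wild type cells, with a log2 difference of −2.43. With the level minimum raised to the 75th percentile, the STAT4 difference was no longer called, since neither Th1 array reached it.

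Of the other 5 Maf probe sets, 4 showed the same order of wild type above deficient. Probe set 1456060_at read 9.29 in wild type and 3.68 in STAT4-deficient Th1 cells, then 11.63 in wild type and 3.73 in STAT6-deficient Th2 cells. It separated each deficient array from its wild type most widely, with differences of −5.61 without STAT4 and −7.90 without STAT6. Probe set 1447849_s_at read 6.24, 3.43, 10.07 and 3.14 in the same order of arrays, and 1444073_at read 6.14, 4.47, 9.24 and 3.49. Probe set 1435828_at read 4.59, 3.28, 8.88 and 3.14, so that only Th2 wild type cells reached the level minimum. Both deficient arrays lay under the level minimum on all 4 of these probe sets. The sixth, 1447945_at, stood apart, at 5.87, 6.27, 6.01 and 6.06, with no difference above 0.40. Over the 6 probe sets the median difference was −1.63 without STAT4, with 4 called lower of 5 at the level minimum (5.47% of all probe sets were), and −5.74 without STAT6, with 5 called lower of 6 (19.1% were). Where a deficient array is under the level minimum, the fold rests on the background of that array, and the size of a Maf difference depends on the probe set while its direction was shared by 5 of 6.

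Nfil3, like Maf, was highest in Th2 wild type cells and lower in each deficient culture than in its wild type, at brighter levels. Its only probe set read 10.42 in wild type and 9.04 in STAT4-deficient Th1 cells, then 12.68 in wild type and 9.18 in STAT6-deficient Th2 cells. It was 11.3-fold lower without STAT6 (−3.49), 2.60-fold lower without STAT4 (−1.38) and 4.77-fold higher in Th2 than in Th1 wild type cells (2.25). The deficient arrays lay close together, 0.14 apart, and both were below either wild type. The STAT4 call was narrowly lost, at −0.99, with hybridization controls as the centre of each array. As with Maf and Nfil3, 270 of 10951 genes (2.47%) were called lower in both losses. These genes made 42.9% of those lower without STAT4 and 13.5% of those lower without STAT6. Over all 10951 genes, 2002 were lower without STAT6 and 630 were lower without STAT4, which are smaller shares than 42.9% and 13.5%.

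Gfi1 was abundant and nearly level. It read 11.43 in wild type and 10.92 in STAT4-deficient Th1 cells, then 11.61 in wild type and 11.56 in STAT6-deficient Th2 cells, above 96.1% or more of the probe sets on every array. No pair of arrays was separated by 2-fold, and the widest gap was 0.69, between Th2 wild type and Th1 STAT4-deficient cells. Its differences were −0.50 without STAT4, −0.05 without STAT6, 0.19 between the wild types and 0.63 between the deficient cells, with no order that exceeds the disagreement between probe sets for the last 3. With each array centred on its median probe set the last became 1.01, just past the limit, and the STAT6 and wild type values changed sign under other scalings, from −0.17 to 0.10 and from −0.07 to 0.56.

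Bhlhe41 reached the level minimum on no array. Probe set 1421099_at read 5.80 in wild type and 5.74 in STAT4-deficient Th1 cells, then 4.66 in wild type and 4.76 in STAT6-deficient Th2 cells. Probe set 1457096_at read 4.54, 5.47, 5.45 and 4.71 in the same order of arrays. The probe sets gave opposite signs between the wild types, −1.13 and 0.91 (Th2 minus Th1), so they give no order of the cultures. Its paralog Bhlhe40 (DEC1), by contrast, was bright, at 13.40, 12.17, 12.06 and 12.81, and was lower in Th1 cells without STAT4 (−1.24) and in Th2 than in Th1 wild type cells (−1.34).

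Counted over the 5 genes, 3 were called higher in Th2 than in Th1 wild type cells and none lower, where the calls took in 33.5% of all genes bright enough, 25.4% as higher and 8.14% as lower. Without STAT6, 3 of the 5 were lower and none higher, against 26.5% called, 19.5% lower and 7.01% higher, among all genes. Without STAT4, 1 was higher and 2 were lower, against 11.5% called, 6.18% higher and 5.34% lower. Over the probe sets, 7 of 11 were lower and none higher without STAT6, with 9 of the 11 bright enough. Among all probe sets bright enough, 28.1% were called, 19.1% lower and 8.95% higher. Without STAT4, 5 were lower and 1 higher, with 8 bright enough, where 12.7% were called, 5.47% lower and 7.19% higher. Between the wild types, 7 were higher and none lower, with 9 bright enough, where 33.8% were called, 24.5% higher and 9.28% lower. Maf alone gave 5 of the 7 without STAT6, 4 of the 5 lower without STAT4 and 5 of the 7 between the wild types. These Maf probe sets are repeat readings of 1 gene, so the counts over probe sets are not counts of separate genes. The median difference of the 5 genes was −0.50 without STAT4, −1.50 without STAT6 and 2.25 between the wild types. Over all genes at the level minimum it was 0.13, −0.30 and 0.37. The sets are not alike, since the median of the 5 takes in Bhlhe41, which is under the level minimum. The genes were chosen for their known link to Th2 cells and with earlier results of these data known. Their direction between the wild types is part of that choice. Each loss shares a wild type array with that comparison, so the counts in the losses are not free of the choice either.

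Between STAT6-deficient Th2 and STAT4-deficient Th1 cells, 4 of the 5 genes reached the level minimum and none was called. Among all genes bright enough, 22.9% were called (10.3% higher, 12.6% lower). Only 5 of the 11 probe sets, 2 of them for Maf, were bright enough in this pair, and none was called. The other probe sets could not be called. Of all probe sets bright enough, 29.3% were called (13.5% higher, 15.8% lower). The 3 genes that separated the wild types, Gata3, Maf and Nfil3, were at −0.39, −0.85 and 0.14 here. Of 2842 genes called higher in Th2 wild type cells and at the level minimum in both comparisons, 2148 (75.6%) were not called between the deficient cells. Another 611 (21.5%) were still higher in the Th2 culture. Among all 11546 genes at the level minimum in both, 9191 were not called between the deficient cells and 1222 were higher. Being uncalled there was thus no more common among genes higher in Th2 wild type cells than among all genes.

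**Figure D2:**
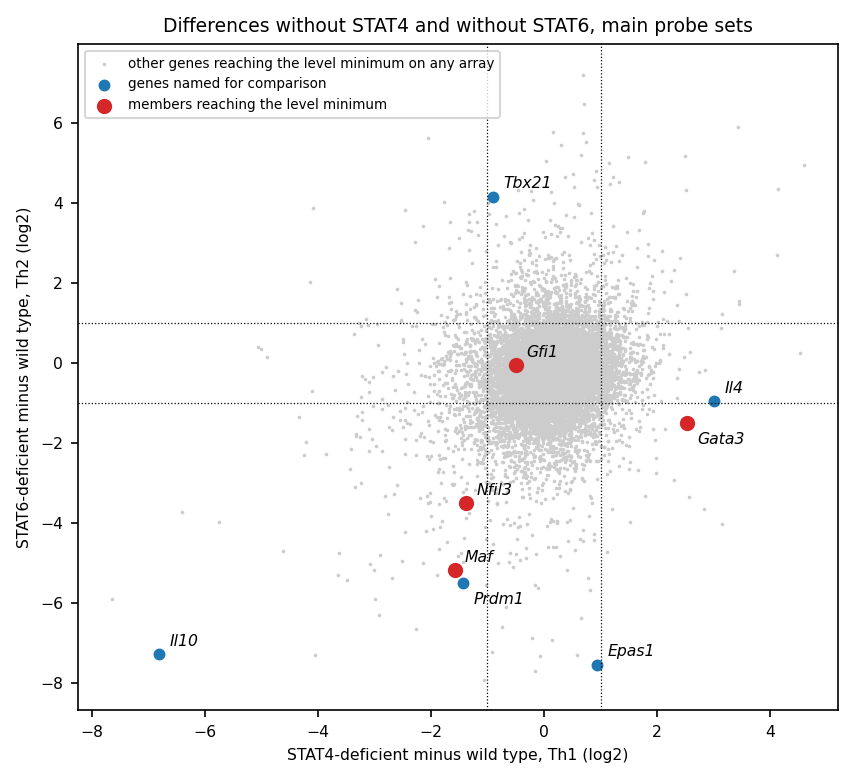
Difference without STAT4 in Th1 cells (x axis, log2) against difference without STAT6 in Th2 cells (y axis, log2), 1 point per gene by its main probe set. Grey points are genes that reach the level minimum on any array, red points the 4 members that do, blue points genes named for comparison, and dotted lines mark 2-fold. Gata3 lies at 2.52 and −1.50, close to Il4, Maf and Nfil3 lie in the lower left with Il10 and Prdm1, and Gfi1 lies within the dotted lines.

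Of 13 genes of the interleukin-4 pathway to Gata3 at the level minimum (14 of 16 were measured), 4 were lower and 1 higher without STAT6, and the median was −0.64. Among all genes 19.5% were lower and 7.01% higher, around a median of −0.30. Il4ra, the receptor chain that binds interleukin-4, read 11.95 in Th2 wild type and 9.42 in STAT6-deficient cells (−2.53), with its other probe sets at −3.24 and −0.98. The adaptor gene Irs2 (−2.36) and the kinase genes Jak3 (−1.78) and Jak1 (−1.10) were lower as well, while Notch2, a receptor that can act on Gata3, was higher (1.91). Without STAT4, Irs2 was lower (−1.79) and Notch2 higher (1.20), with a list median of 0.04. Between the wild types Jak3 (2.23), Il4ra (1.19) and Il2ra (1.03) were higher in Th2 cells and Notch2 lower (−1.20). Between the deficient cells Jak1 (−1.83) and Il4ra (−1.04) were lower. Stat5a was called higher there on its main probe set (1.48), but its other probe set differed by −1.57, so its direction is unsettled.

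Stat6 itself read 10.93 with and 10.92 without the intact gene in Th2 cells on its main probe set and 8.93 and 8.40 on the other. Stat4 read 11.45 in wild type Th1 cells and 9.20 in those without it (−2.26). In wild type Th2 cells Stat4 read 8.96, below its level in STAT4-deficient Th1 cells. Whether these probes lie in the deleted parts is not known here, so neither the Stat4 nor the Stat6 levels check the genotype.

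Genes whose products bind, oppose or repress GATA3 were called in both directions in every comparison but STAT4 loss, where all calls were lower. Tbx21, which encodes T-bet, read 12.26 in wild type and 11.36 in STAT4-deficient Th1 cells, then 7.69 in wild type and 11.85 in STAT6-deficient Th2 cells. Its difference of 4.16 without STAT6 was the largest of the list, beside −1.50 for Gata3. Without STAT4, where Gata3 was higher, Tbx21 differed by −0.91, under the limit. Both deficient cultures thus read high for Tbx21 and for Gata3 relative to the wild type in which each of these genes was lowest.

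Of the 19 partners and antagonists, 5 were higher and 6 lower without STAT6 (median −0.04). After Tbx21, the higher ones were led by Zfpm1, which encodes the GATA cofactor FOG-1 (2.26), Bcl6 (1.70, with another probe set at −0.45) and Id3 (1.53). The lower ones were led by Id2 (−2.63), Fli1 (−2.43), Hlx (−1.93) and the histone methyltransferase gene Ezh2 (−1.74). Without STAT4, 6 were lower and none higher (median −0.36), among them Hlx (−2.26), Id2 (−1.86), Zbtb32, which encodes the repressor of GATA (−1.50), and Fli1 (−1.18). In Th2 against Th1 wild type cells 2 were higher and 6 lower, led by Tbx21 (−4.57), Sox4 (−1.67), Eomes (−1.50) and Runx3 (−1.31). Between the deficient cells Zbtb32 (3.09) and Bcl6 (2.18, with its other probe set at −0.91) were higher in the Th2 culture, among 18. Runx1 was lower, just past the limit, while its other probe sets ran from −1.49 to 0.83.

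Of 23 other regulators of Th2 gene expression, 9 were lower without STAT6 and 1 was higher, with a median of −0.87, where 19.5% of all genes were lower and 7.01% higher. Epas1 (−7.53), Prdm1 (−5.48) and Pparg (−4.01) were furthest below wild type, as was Ecm1 (−4.81), a secreted protein that helps Th2 cells to leave lymph nodes. Prdm1, which encodes Blimp-1, read 7.35 in wild type and 5.92 in STAT4-deficient Th1 cells, then 11.09 in wild type and 5.61 in STAT6-deficient Th2 cells, in the same order as Maf. Irf4, which encodes a factor that acts with BATF in Th2 cells, was level at 13.26 to 13.54 on its main probe set (the other differed by −1.17 without STAT6), while Batf was lower without STAT6 (−2.70). Nfatc1 was the 1 that was higher (1.35). Without STAT4, 8 were lower and 1 higher (median −0.49): Fosl2 (−2.43), Jun (−1.83), Ecm1 (−1.53) and Prdm1 (−1.43) led the lower ones and Gata1 was higher (1.38). In Th2 against Th1 wild type cells 9 were higher, led by Epas1 (7.43), Pparg (5.31), Prdm1 (3.74) and Ecm1 (3.43), and Jun (−2.72), Junb (−1.38) and Bhlhe40 were lower. Between the deficient cells Pparg (2.02) and Fosl2 (1.52, with its other probe set at −0.52) were higher in the Th2 culture. In the same pair 4 were lower, led by Rara (−1.66).

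**Figure D3:**
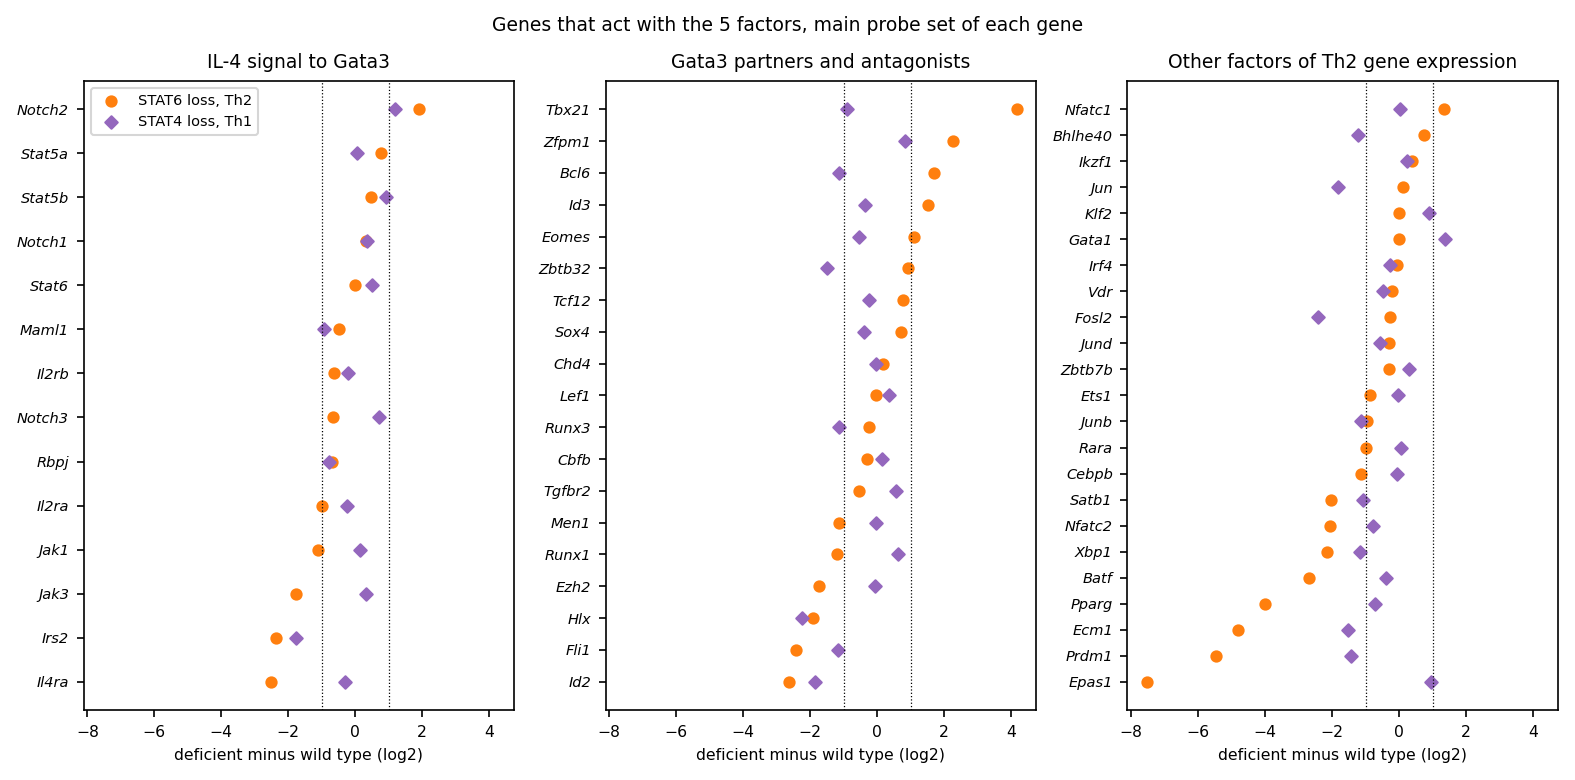
Differences (deficient minus wild type, log2) of the genes of 3 lists, main probe set of each, without STAT6 in Th2 cells (orange circles) and without STAT4 in Th1 cells (purple diamonds), sorted by the former, with dotted lines at 2-fold. Il4ra, Id2 and Epas1 are lowest without STAT6 in their lists, at −2.53, −2.63 and −7.53, and Notch2, Tbx21 and Nfatc1 are highest.

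Genes known to be bound or driven by these factors were called in both directions in Th1 cells without STAT4. Of 19 at the level minimum 3 were higher and 6 lower, with a median of −0.26, where 6.18% of all genes were higher and 5.34% lower, with a median of 0.13. The higher ones included the GATA3 targets Il4 (3.01) and Il13 (2.85), besides the chemokine receptor gene Ccr8 (2.56). Il5, another GATA3 target, was under the level minimum on both Th1 arrays, at 4.34 in wild type and 4.99 in STAT4-deficient cells. The lower ones were led by Il21 (−7.63) and Il10 (−6.80), both targets of c-MAF, then Ctla4 (−2.65) and Il24 (−2.26). Il21 read 4.67 in STAT4-deficient cells, under the level minimum, so the size of its difference rests on the background of that array. Havcr2, a target of NFIL3 that encodes TIM-3, was lower too (−1.12). Whether the differences of Gata3, Maf or Nfil3 had a part in these was not tested.

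Without STAT6, 12 of 20 of these genes were lower and 2 higher, and the median was −2.25, against 19.5% and 7.01% of all genes and a median of −0.30. The list was chosen with earlier results of these data known. Il10 (−7.26), Il24 (−6.63), Il5 (−6.36) and Il21 (−5.88) were lowest, and Havcr2 was lower (−2.49). In STAT6-deficient cells Il21 read 5.75, under the level minimum, and Il5 5.95, just above it. The sizes of these differences therefore depend on the background of that array. Il4 (−0.95) and Il13 (−0.18) stayed under the 2-fold limit, and Il2ra, the gene that BHLHE41 has been linked to, read −0.99 on the probe set used for it and −1.08 on the other. Cd69 (2.04) and Atp8a2 (1.21) were higher. In Th2 against Th1 wild type cells 12 of 21 were higher and 2 lower, led by Il5 (7.96), Il24 (6.02), Il4 (5.11) and Il13 (4.45). Between the deficient cells 4 were higher in the Th2 culture, Havcr2 (2.74), Il24 (1.66), Il13 (1.42) and Il4 (1.15), and 4 lower, led by Ccr8 (−3.48) and Ccr4 (−1.82).

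Relatives of the 5 genes mostly did not share their pattern. Of the GATA family Gata1 read 6.62, 8.0, 7.65 and 7.63 in Th1 cells with and without STAT4 and then Th2 cells with and without STAT6, so that it was called with Gata3 without STAT4 and between the wild types (2 higher of 4 and of 3) but differed by −0.01 without STAT6, where Gata3 was the only one called of 3. Between the deficient cells 1 of 4 was lower, Gata4 (−1.35). Of the MAF family 5 of 7 were measured. Maff, a small MAF protein gene without an activation domain, was lower with Maf without STAT4 (−1.53) but differed by 0.60 without STAT6 and was lower in Th2 than in Th1 wild type cells (−2.51). The calls were 2 lower of 5, 1 lower of 4 and 1 in each direction of 4 in these comparisons, and 1 lower of 5, Nrl (−1.11), between the deficient cells.

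Nfil3 and Bhlhe41 act on the circadian clock, and 19 of 21 symbols of clock and related genes were measured. Without STAT6, 4 were higher of 17, Rora (3.72), Npas2 (1.92), Nr1d2 (1.25) and Per1 (1.18), with a median of 0.06. The 2 lower ones were Nfil3 and Csnk1e (−1.64, with its other probe sets at −0.04 and 0.44). Without STAT4, Npas2 was higher (1.28) and Nfil3 and Bhlhe40 were lower of 18 (median 0.24). In Th2 against Th1 wild type cells Nfil3, Per2 (1.46, with its other probe sets at −0.78 and 0.70) and Ciart (1.07) were higher. Lower there were 4 of 17, Rora (−1.93), Per1 (−1.61), Bhlhe40 (−1.34) and Nr1d2 (−1.13). Between the deficient cells Rora was higher (2.77) and Dbp (−1.46), Per3 (−1.41) and Nr1d1 (−1.15) lower of 18.

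The paralog of Gfi1 and the corepressors that work with it were not called without either STAT, except Ajuba without STAT4. Without STAT6 none of 8 genes of this list was called (median −0.25), with Kdm1a, the histone demethylase gene, at −0.03 and Rcor1 at −0.34. These are main probe sets, and others of Rcor1 and Ehmt2 differed by −1.30 and −1.18 there. Without STAT4 only Ajuba was called of 9 (−3.10, lower). Between the wild types Ehmt2 (1.37, with its other probe set at −0.34) and Hdac2 (1.17) were higher in Th2 cells and Ajuba lower (−2.61) of 9. Between the deficient cells Hdac2 was higher (1.19, with another probe set at 0.30) of 8.

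The 3 genes whose pattern was most like that of each member were found among 13147 genes that reached the level minimum on any array, by the root mean square difference (RMS, log2) of profiles centred on their own mean over the 4 arrays. For Gata3 they were Rftn1, a lipid raft protein gene (RMS 0.24), Sgo1, which encodes a guardian of centromeric cohesion (0.32), and the corepressor gene Tle1 (0.33). Rftn1 read 7.06 in wild type and 8.99 in STAT4-deficient Th1 cells, then 10.21 in wild type and 9.02 in STAT6-deficient Th2 cells. For Maf they were Fam20a (0.23), Pla2g12a (0.30) and Car5b (0.39). For Nfil3 they were the kinase gene Sgk1 (0.14, at 9.23, 7.85, 11.64 and 7.77 in the same order of arrays), Sgce (0.15) and the purinergic receptor gene P2ry12 (0.17). For Gfi1, whose pattern is nearly flat, they were Zbtb33, Tti2 and Eif4g2, all at 0.04. With 4 arrays and this many genes, these matches are a description only, and Bhlhe41 was left out because it did not reach the level minimum.

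The cells read as T cells on every array. Of the T lineage list 9 of 13 genes were measured and all 9 reached the level minimum on each array, with Cd3d at 13.22 to 13.73 and Cd4 at 9.68 to 11.65. Their summed level (log2) was 15.81, 15.57, 15.76 and 15.59 in Th1 cells with and without STAT4 and then Th2 cells with and without STAT6. One T lineage gene was lower in each loss and 3 were lower in Th2 than in Th1 wild type cells, while between the deficient cells 1 was higher and 2 were lower of 9.

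Most myeloid and mast cell markers were near or under the level minimum, and those above it differed in both directions. Of 8 myeloid and dendritic markers measured, 2 to 4 reached the level minimum on an array, and the summed level was 8.89, 8.83, 9.56 and 8.41 in the order of arrays above. Adgre1 (8.26 against 5.92), Itgax (6.76 against 5.03) and Fcgr3 (6.67 against 5.08) were lower without STAT6, 3 of 4 at the level minimum. Csf1r was level at 7.03 to 7.20 on its main probe set, while another differed by −1.23 without STAT6. Cd14, Itgam and Mrc1 were under the level minimum throughout. Lyz2 was lower in Th2 than in Th1 wild type cells (−1.39), where Adgre1 (3.26) and Itgax (1.19) were higher. Of 10 mast cell and basophil markers 2 to 4 reached it, with a summed level of 9.38, 9.15, 9.52 and 9.01. Cpa3 read 6.96, 5.63, 8.64 and 4.90, lower in both losses as Maf and Nfil3 were. Kit went the other way, at 6.72, 6.14, 3.95 and 5.69, lower in Th2 than in Th1 wild type cells (−2.77). Hdc read 7.42, 7.13, 6.45 and 7.34, with no call, and Fcer1a and Ms4a2, which encode the high-affinity IgE receptor, were under the level minimum on all arrays. The part of these cells in the Maf and Nfil3 differences was not tested beyond these values.

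The other marker lists were smaller. B cell markers had a summed level of 9.50, 10.66, 10.23 and 10.31, most of it from Ighm (8.76 to 10.30), which was higher without STAT4 (1.54, 1 of 6) and in Th2 than in Th1 wild type cells (1.07); without STAT6 1 of 5, Cd22, was higher (1.04). Of CD8 and NK cell markers 4 of 7 were measured, with a summed level of 7.64 to 8.96, and Cd8b1 alone was called, lower without STAT6 (−2.07) and higher in Th2 than in Th1 wild type cells (1.13). Of 6 measured markers of type 2 innate lymphoid cells, which also depend on GATA3, the summed level was 12.95, 11.31, 9.58 and 11.80, set mainly by Il18r1 and Rora, which T cells express too. Il17rb (−1.97) and Arg1 (−1.53) were lower and Rora and Il18r1 (1.94) higher of 6 without STAT6, and 1 of 4, Il18r1 (−1.85), was lower without STAT4.

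The directions of the called member differences were the same under 4 other scalings of the arrays. The Gata3 difference ran from 2.29 to 2.91 without STAT4, from −1.61 to −1.34 without STAT6 and from 3.31 to 4.01 between the wild types. The Maf difference without STAT6 ran from −5.28 to −4.68 and without STAT4 from −1.99 to −1.20, and the Nfil3 difference without STAT6 from −3.61 to −3.26. The median difference over all 18193 genes without STAT4 was 0.17 as deposited, and ran from −0.07 after median centring to 0.55 after centring on the hybridization controls.

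**Figure D4:**
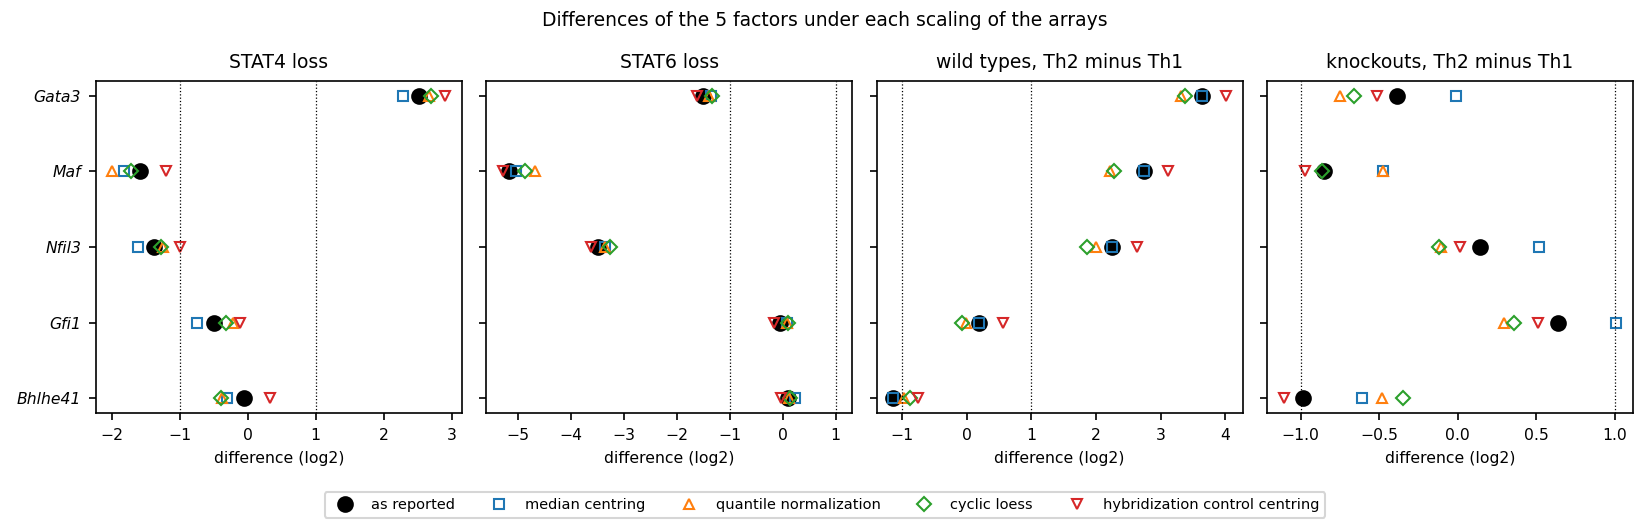
Log2 differences of the main probe set of each of the 5 genes (rows) in the 4 comparisons (panels), as reported (black circles) and after 4 other scalings of the arrays (open symbols), with dotted lines at 2-fold. The symbols of a gene stay on the same side of the 2-fold lines for Gata3 and Maf in every panel, while Nfil3 without STAT4, Gfi1 between the deficient cells and Bhlhe41 in both Th2 minus Th1 panels touch or cross a line.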

How the data were processed

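Total RNA from 4 cultures was hybridised to Affymetrix mouse expression arrays, 1 per group, per the labels. The authors deposited 1 log2 level for each probe set, from RMA per the submitters' processing notes; its version, and whether all arrays went into 1 normalization, are not given in the sources used here. Probe sets were named through the platform annotation, and symbols were updated through a RefSeq table (GRCm38.p6), which matched 34741 of 34945 probe sets with 1 gene; 932 with several genes and 9160 with none listed were not used for genes, nor were 64 controls. Each gene was represented by its probe set with the highest mean. Differences are between single arrays, with no test and no p-value, and the number of arrays limits the precision. Calls needed a log2 difference of 1 and a level of 5.82. The members, and the 14 gene lists, were chosen with earlier results of these data known, and so were the promoter motifs. Named were all members, Stat4, Stat6, up to 4 called genes per list and comparison, and 3 genes of like pattern per member; list genes beyond these (such as Irf4, Batf, Havcr2, Bhlhe40, the marker genes and uncalled values) were named after their values were seen. Alternatives were 4 scalings (quantile and cyclic loess with limma 3.58.1 in R 4.3.3), 2 level minimums and the mean of all probe sets. The calling step, in Python 3.11.15, was tested on simulated arrays.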

Additional observations from a re-analysis of the deposited data

Results flagged for a closer look

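Gata3 was called in opposite directions without the STATs. In Th1 cells without STAT4 it was higher by 2.52 on the log2 scale, and in Th2 cells without STAT6 it differed by −1.50 from wild type, each from 1 pair of arrays. The culture condition and the gene removed both differ between these pairs, and the difference between the 2 effects was not tested.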

How the results depend on the processing

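No paired analysis was possible because there is 1 array per group and the labels number no replicates, and for the same reason no array could be left out. Of 140 member differences recomputed over 7 alternatives, 134 kept their call, none reversed a call, 2 lost it and 4 gained one. Maf without STAT4 (−1.58) was not called with the level minimum at the 75th percentile, since its wild type level of 7.74 fell under that minimum. Nfil3 without STAT4 became −0.99 under centring on the hybridization controls. Bhlhe41 between the wild types was called lower after median centring (−1.13) and with no level minimum (−1.13), and between the deficient cells after centring on the hybridization controls (−1.11). Gfi1 between the deficient cells became 1.01 after median centring. The count of members called between the deficient cells therefore went from 0 to 1 under median centring and to 1 under hybridization control centring, and the other 26 recomputed counts stayed within 1.5 times. The cause of these changes was not tested. Among all genes, the share of calls that were higher depended on the scaling: without STAT4 it was 53.7% (779 higher and 673 lower), and 24.8% to 87.5% otherwise (2385 higher and 340 lower at the top, on the hybridization controls); without STAT6 26.5%, and 20.1% to 43.4%; in Th2 against Th1 wild type cells 75.7%, and 55.1% to 91.1%; between the deficient cells 44.9%, and 31.6% to 81.2%. Levels under the level minimum, as for Bhlhe41 and most Maf probe sets in deficient cells, have little order.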

Other observations

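Many probe sets shared exactly the same deposited value on an array. The 45037 probe sets outside the controls took 3560 distinct values in wild type and 3295 in STAT4-deficient Th1 cells, then 3964 in wild type and 3709 in STAT6-deficient Th2 cells. On the STAT6-deficient array the Maf probe sets 1447849_s_at and 1435828_at both read 3.14, a value held by 420 probe sets, and 1456060_at shared its 3.73 with others to make 499. The Bhlhe41 probe set 1421099_at had a value held by 230 to 403 probe sets on each array. The high levels of Gata3 outside Th1 wild type cells were each held by 1 probe set.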
